A study of Mus musculus with 2 samples.

Results

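The 10 genes described here encode the granins chromogranin A (Chga) and secretogranin I (Chgb) and the peptide hormones ghrelin (Ghrl), GIP (Gip), cholecystokinin (Cck), secretin (Sct), proglucagon (Gcg), peptide YY (Pyy), somatostatin (Sst) and neurotensin (Nts). They were found by gene symbol in the platform's probe annotation, which gave 1 probe for each, 10 probes among 23473 and 10 genes among 16390 named. RNA came from cells sorted from the small intestinal epithelium of mice that joined the alleles Atoh1-crePGR, Lgr5-EGFP-IRES-creERT2 and, as the reporter, Rosa26-tdTomato, and this genotype was shared by all 3 populations. RU486, which activates the Atoh1-driven crePGR, was given by intraperitoneal injection on 5 consecutive days, so descent from cells that expressed Atoh1 outside those days is not recorded. Cells pooled from 4 mice were sorted 20 days after recombination, and the age and sex of the mice are not given in the labels. The double-positive population carried tdTomato and EGFP, and is the progeny of Atoh1-expressing cells with Lgr5-driven EGFP. The tdTomato-only population is the remaining progeny of Atoh1-expressing cells. The EGFP-only population has Lgr5-driven EGFP without the tdTomato record. Lgr5 marks crypt base columnar stem cells and Atoh1 commits cells to the secretory lineage.

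Enteroendocrine cells are scattered secretory cells of the gut lining that store peptide hormones in dense granules and release them on nutrient contact. Granins are acidic proteins that help to build these granules and occur in most enteroendocrine subtypes, while each hormone marks a smaller set of cells. The subtypes arise from crypt progenitors that express Neurog3, downstream of Atoh1.

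There were 2 two-colour arrays, each with 1 biological replicate. On the first, double-positive RNA in Cy3 was set against EGFP-only RNA in Cy5, and on the second tdTomato-only RNA in Cy3 against EGFP-only RNA in Cy5. No dye swap was made and no ratio has a replicate error or a test. Values are spot median intensities in scanner units, without background subtraction, and log2 ratios after background correction and loess within each array. A gene was counted as higher or lower at 2-fold, that is from a log2 ratio of 1 upward or −1 downward. Between 67.0% and 77.1% of probes lay above background in the 4 channels. Spot medians are given as scanned, before normalization. Cck could thus read 776 in the tdTomato-only against 1179 in the EGFP-only channel with a log2 ratio of −0.09. With median centring in place of loess its ratio was −0.62. Without a dye swap, a trend of the dyes and a difference between the populations cannot be told apart. Since both arrays carried EGFP-only RNA, its readings could be compared over 15639 probes. The second array minus the first had a technical SD of 0.084 (log2). For the 10 hormone and granin probes this difference ran between −0.19 (Sst) and 0.10 (Gip), with an SD of 0.09. The technical SD rests on unnormalized EGFP-only readings in Cy5, and holds no error of Cy3, of normalization or of repeated sorting. A step larger than this SD is therefore not shown to be resolved. All 10 probes were above background in all 4 channels, and none was saturated or marked for quality.

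To show the regulatory sequence next to some of these genes, the 120 bases before the annotated start are printed for both granin genes and 4 hormone genes, from RefSeq on mouse build GRCm38.p6. Capitals mark the core of the cyclic AMP response element (CRE), TGACG on either strand, and the letters TATAAA on either strand. Where cores on both strands overlap they form the full CRE, TGACGTCA.
Chga, chr12:102554821-102554940, plus strand: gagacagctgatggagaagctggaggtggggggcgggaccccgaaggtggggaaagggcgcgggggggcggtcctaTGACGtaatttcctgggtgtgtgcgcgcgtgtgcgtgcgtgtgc
Chgb, chr2:132781522-132781641, plus strand: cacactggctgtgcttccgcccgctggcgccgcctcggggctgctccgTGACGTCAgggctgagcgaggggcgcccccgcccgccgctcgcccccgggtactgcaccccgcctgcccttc
Cck, chr9:121495695-121495814, minus strand: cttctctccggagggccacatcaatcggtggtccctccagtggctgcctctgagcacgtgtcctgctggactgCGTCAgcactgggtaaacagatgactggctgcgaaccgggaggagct
Sst, chr16:23890845-23890964, minus strand: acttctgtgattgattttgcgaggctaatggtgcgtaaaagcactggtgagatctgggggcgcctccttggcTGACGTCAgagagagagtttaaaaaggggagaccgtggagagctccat
Gip, chr11:96024425-96024544, plus strand: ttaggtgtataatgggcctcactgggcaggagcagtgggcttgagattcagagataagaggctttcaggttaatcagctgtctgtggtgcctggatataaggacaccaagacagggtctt
Sct, chr7:141279134-141279253, minus strand: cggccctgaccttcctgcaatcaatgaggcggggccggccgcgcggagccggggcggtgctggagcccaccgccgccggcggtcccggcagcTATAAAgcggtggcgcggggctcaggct

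The CRE core lay 44 bases before the start in Chga, 47 in Cck, and within the full CRE 72 bases before the start in Chgb and 48 in Sst. In windows of 300 bases (250 before and 50 after the start), 5 of the 10 genes held the CRE core (Chga, Chgb, Cck, Sst and Nts), against 20.8% of 32851 windows. The full CRE was in 2 of the 10 genes, against 1.79% of windows. The E-box letters CANNTG, read by basic helix-loop-helix factors such as Neurog3 and Neurod1, were in all 10 genes and in 72.3% of windows. TATAAA was in 3 of the genes (Chga, Sct and Gcg) and 13.6% of windows. Ghrl has 4 annotated windows and Pyy 2, so a match in any of them was counted, and a match of letters is a description only. Counted by window, as the shares are, the 10 genes had 14 windows. Of these 5 held the CRE core, 2 the full CRE, 14 the E-box letters and 3 TATAAA.

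The first comparison asked how Lgr5-EGFP cells with the tdTomato record of Atoh1 expression differ from those without that record. In the double-positive population 5 of the 10 genes were at least 2-fold lower than in the EGFP-only population, namely Ghrl, Gip, Chgb, Cck and Chga, against 0.340% of 11774 genes. None of the 10 was at least 2-fold higher, against 5.10% of all genes. The median log2 ratio of the 10 was −0.88, against −0.01 over all genes, with 8 of 10 below 0, against 51.1%, and 2 of 10 above 0, against 48.9%. The same 5 genes were past 2-fold lower under each of the 8 processing settings tried, with the lowest values at −2.13 for Ghrl, −2.04 for Gip, −1.90 for Chgb, −1.71 for Cck and −1.53 for Chga. The settings that changed only the filter on dim probes could not alter the ratio of a probe passing both limits, as all 10 did. Over all genes the share at least 2-fold lower was 3.57% in the authors' deposited ratios and 6.29% with median centring. Sct was the highest of the 10, between 0.23 and 0.79 over the 8 settings.

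Both granins were lower in the double-positive population. Chga, the general marker of enteroendocrine cells, read 151 in the double-positive and 363 in the EGFP-only channel. After normalization that was 2.05-fold lower (log2 ratio −1.04). Chgb, its relative in the same granules, read 543 in the double-positive and 2033 in the EGFP-only channel, 2.47-fold lower (−1.30). Of the 11774 genes, 36 had a lower ratio than Chga and 12 a lower one than Chgb.

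Hormones that are made mainly in the stomach and upper small intestine were lower in the double-positive population too, apart from secretin. Ghrl, the precursor of the appetite hormone ghrelin, read 144 in the double-positive and 472 in the EGFP-only channel. It was 2.82-fold lower (−1.49), the lowest of the 10, and 4 of the 11774 genes had a lower ratio. Gip, the incretin of K cells, read 595 in the double-positive and 2472 in the EGFP-only channel, 2.69-fold lower (−1.43). Cck, which makes the gallbladder contract and comes from I cells, read 390 in the double-positive and 1268 in the EGFP-only channel, 2.27-fold lower (−1.18). These 3 hormones were thus past 2-fold, as both granins were. Sct, the S-cell hormone that stimulates bicarbonate secretion by the pancreas, read 382 in the double-positive and 333 in the EGFP-only channel, 1.58-fold higher (0.66). Its ratio was exceeded by 1062 of 11774 genes.

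The L-cell, D-cell and N-cell hormones were all within 2-fold of the EGFP-only level. Gcg, whose precursor yields GLP-1 in L cells, read 336 in the double-positive and 767 in the EGFP-only channel, 1.65-fold lower (−0.72). Sst, the inhibitory hormone of D cells, read 506 in the double-positive and 1070 in the EGFP-only channel, 1.44-fold lower (−0.53). Pyy, the satiety peptide that L cells also release, read 163 in the double-positive and 206 in the EGFP-only channel (−0.09). Nts, the neurotensin gene of N cells, read 130 in the double-positive and 138 in the EGFP-only channel (0.05). For Nts the difference was smaller than the technical SD of 0.084, for Pyy it was about equal to it, and the sign for Nts turned with median centring (−0.18) and with quantile normalization (−0.04). Gcg was past 2-fold lower with median centring alone (−1.21), as was Sst (−1.07).

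**Figure D1:**
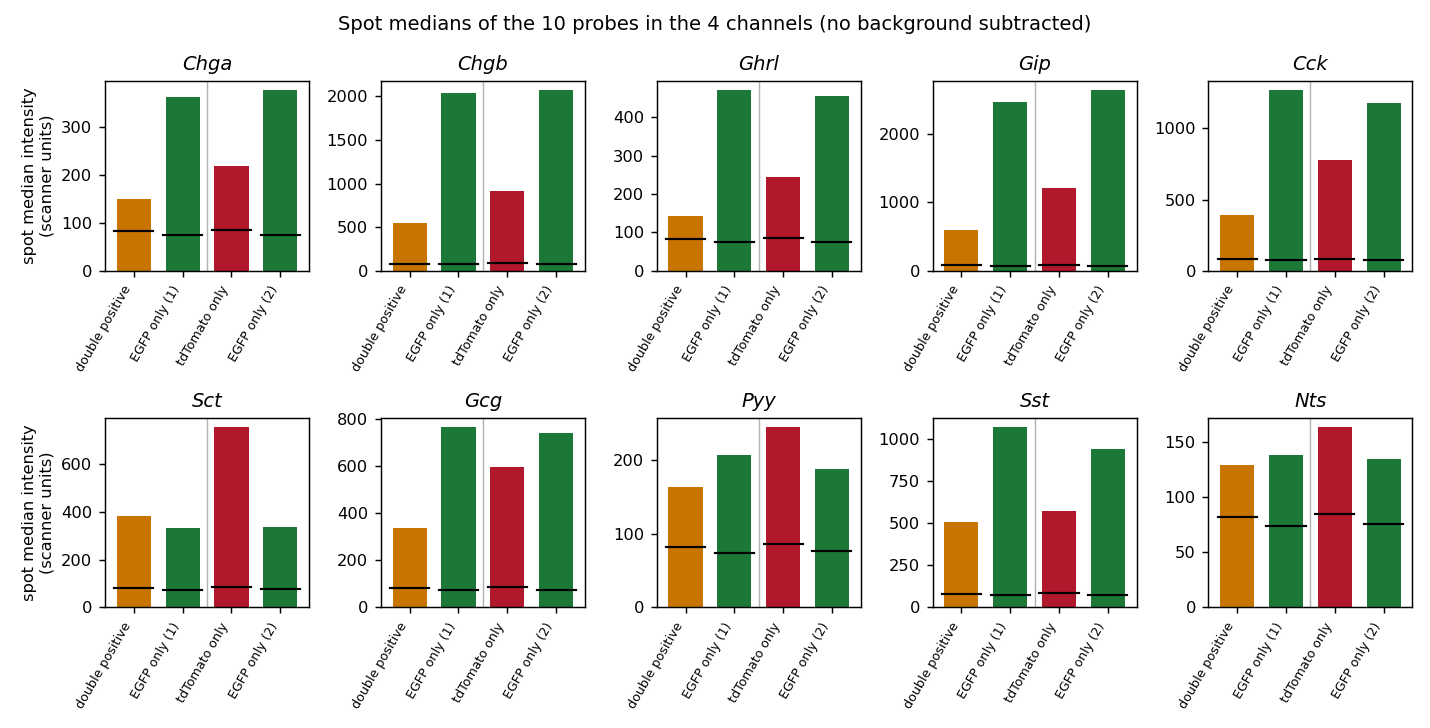
Spot median intensity (scanner units, linear axis from 0) of each of the 10 probes in the double-positive and EGFP-only channels of the first array and the tdTomato-only and EGFP-only channels of the second. The black line is the limit of background in that channel. Scales differ between genes. The 2 EGFP-only bars of a gene are of near-equal height, while Gip reads 595 in the double-positive channel against 2472 in the EGFP-only channel of that array, and Sct reads 755 in the tdTomato-only channel against 336 in the EGFP-only channel.

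The second comparison took the progeny of Atoh1-expressing cells without EGFP, and set it against EGFP-only cells. Here none of the 10 genes was at least 2-fold lower, against 1.19% of 11381 genes, and 1 of 10, Sct, was at least 2-fold higher, against 6.15%. The median log2 ratio was −0.16, against −0.01 over all genes, with 6 of the 10 below 0, against 51.8%, and 4 above 0, against 48.2%. Hormones thus lay on both sides of the EGFP-only level, and their ratios ran from −0.62 for Chgb to 1.65 for Sct.

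Sct read 755 in the tdTomato-only and 336 in the EGFP-only channel, 3.14-fold higher, and 293 genes had a higher ratio. Pyy read 244 in the tdTomato-only and 187 in the EGFP-only channel, 1.61-fold higher (0.69). Nts was also brighter, with 164 in the tdTomato-only and 135 in the EGFP-only channel (0.45). These 3 genes were above the EGFP-only level under each of the 8 settings, with Sct between 1.19 and 1.86. Gcg, with 594 in the tdTomato-only and 741 in the EGFP-only channel, had a log2 ratio of 0.15 that turned to −0.08 in the authors' deposited ratios and to −0.34 with median centring.

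Both granins and 4 hormones lay below the EGFP-only level. Chga read 218 in the tdTomato-only and 378 in the EGFP-only channel, 1.43-fold lower (−0.51). Chgb read 915 in the tdTomato-only and 2071 in the EGFP-only channel, 1.53-fold lower (−0.62). Both granins were thus nearer to the EGFP-only level here than on the other array. Ghrl read 244 in the tdTomato-only and 455 in the EGFP-only channel, with a log2 ratio of −0.59. Gip read 1213 in the tdTomato-only and 2641 in the EGFP-only channel, 1.43-fold lower (−0.51). Median centring, which also put all genes at a median of −0.21, placed Chgb (−1.20) and Gip (−1.13) past 2-fold. The ratio of Cck, −0.09, was about the technical SD, but it was −0.62 with median centring. Sst read 573 in the tdTomato-only and 936 in the EGFP-only channel (−0.24), and the 2 EGFP-only readings of Sst were themselves 0.19 apart.

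**Figure D2:**
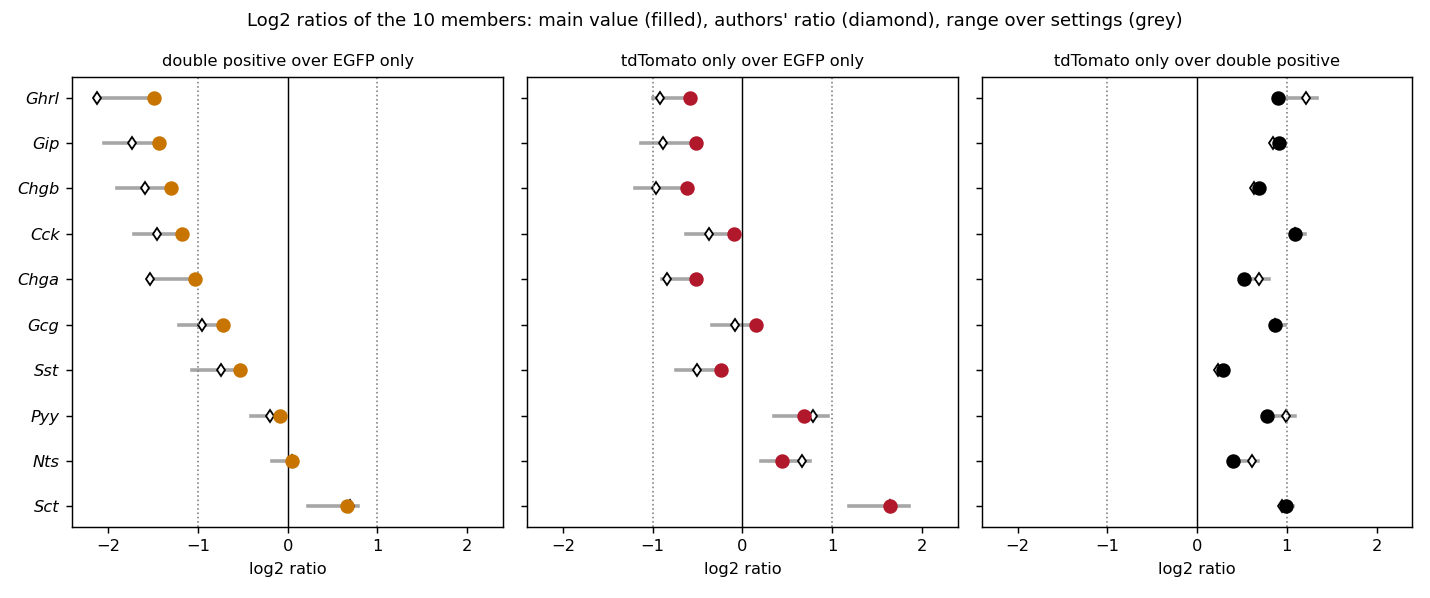
Log2 ratios of the 10 genes in the 3 comparisons, ordered by the ratio of double positive over EGFP only. Filled points are the main values, diamonds the authors' deposited ratios, and grey bars the range over 8 processing settings. Dotted lines mark 2-fold. In the right panel every point lies above 0, from 0.29 for Sst to 1.09 for Cck.

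The third comparison, tdTomato only over double positive, is the difference between the 2 log2 ratios. Both ratios share the EGFP-only population, so the 3 comparisons are not independent. All 10 genes were higher in the tdTomato-only population, against 45.7% of 11311 genes, and none was lower, against 54.3%. Each of the 10 had that direction under all 8 settings. The median log2 difference was 0.82, against −0.02 over all genes. At least 2-fold higher was 1 of the 10, Cck, against 0.813% of all genes, and none was 2-fold lower, against 0.274%. The direction was shared by other lists. Above 0 were 11 of 11 goblet markers (median 1.05), 11 of 12 enterocyte markers (0.28), 7 of 8 tuft markers (0.20) and 5 of 5 nutrient-sensing genes (0.22). Below 0 were 6 of 6 Paneth, 10 of 11 stem cell and 9 of 9 lymphocyte markers.

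Cck was 2.13-fold higher in the tdTomato-only population, with a raw reading of 776 in the tdTomato-only and 390 in the double-positive channel. Sct followed at 1.98-fold (755 in the tdTomato-only and 382 in the double-positive channel). Gip was 1.89-fold higher, with 1213 in the tdTomato-only and 595 in the double-positive channel. Ghrl was 1.87-fold higher, with 244 in the tdTomato-only and 144 in the double-positive channel. These 4 are hormones of the upper gut. In the main values the L-cell genes Gcg and Pyy were 1.83-fold and 1.71-fold higher, and Chgb and Chga 1.61-fold and 1.44-fold. The order of upper-gut and L-cell genes depended on the setting. In the authors' deposited ratios Pyy (log2 0.99) lay above Sct (0.95) and Gip (0.85). With the blank mean subtracted Pyy (1.10) again lay above Sct (1.07) and Gip (0.98). Nts (1.32-fold) and Sst (1.22-fold) were the closest to equal. Of the 11311 genes 75 had a higher difference than Cck, and 979 had a higher one than Sst. Among the 10 genes the differences had an SD of 0.26 on the log2 scale, against 0.72 for each of the ratios to the EGFP-only population. Over all genes the SD was likewise smaller for the difference, at 0.29, than for the ratios of the double-positive (0.57) and tdTomato-only (0.62) populations to EGFP only.

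**Figure D3:**
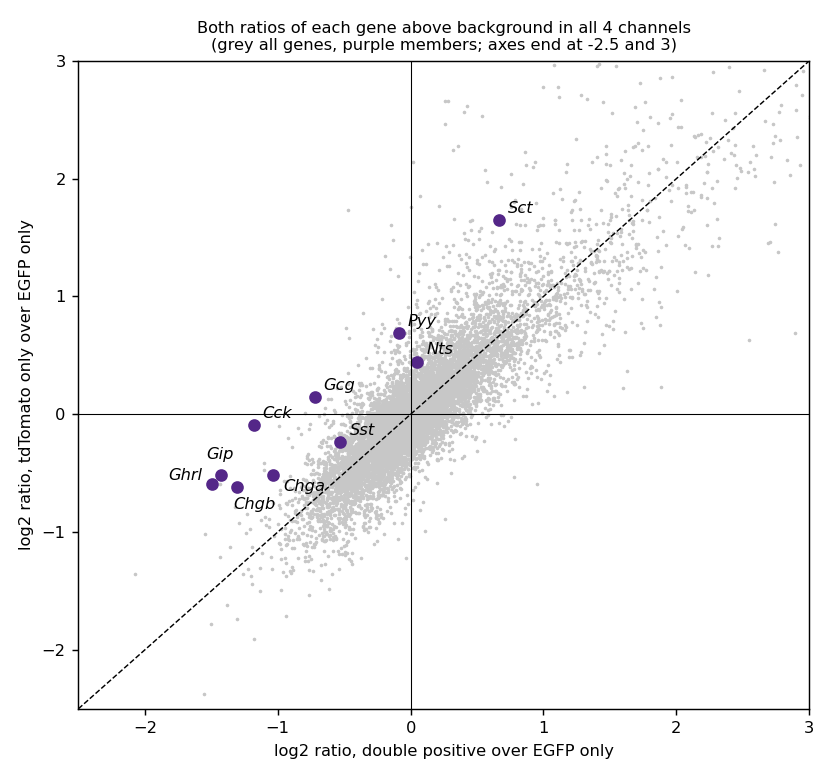
Log2 ratio of tdTomato only over EGFP only (vertical) against log2 ratio of double positive over EGFP only (horizontal) for 11311 genes above background in all 4 channels. Grey points are all genes, of which 92 lie outside the axes, and purple points are the 10 hormone and granin genes. The dashed line marks equal ratios, and all 10 purple points lie above it.

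Ordering the 3 populations by these ratios gave 3 patterns. Chga, Chgb, Ghrl, Gip, Cck and Sst were highest in the EGFP-only, intermediate in the tdTomato-only and lowest in the double-positive population. Gcg and Pyy were highest in the tdTomato-only and lowest in the double-positive population. Sct and Nts were highest in the tdTomato-only and lowest in the EGFP-only population. The steps between EGFP only and tdTomato only for Cck (0.09), between EGFP only and double positive for Pyy (0.09) and between double positive and EGFP only for Nts (0.05) were within or close to the technical SD. The order for Gcg depended on the setting, since tdTomato only over EGFP only was −0.08 in the authors' deposited ratios and −0.34 with median centring. So did that for Nts, with double positive over EGFP only at −0.18 with median centring and −0.04 with quantile normalization. In a sorted bulk sample, fewer enteroendocrine cells and less hormone RNA per cell cannot be told apart.

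The genes with the most similar pair of ratios were sought among 11301 other genes, by Euclidean distance over the 2 ratios. Nearest to Chga were Rnf114 (distance 0.03), Eif4h (0.08), Ddx49 (0.10) and Odc1 (0.12). Nearest to Sct were St3gal4 (0.03), Rab27b (0.04), Aldh1a1 (0.11) and Rab27a (0.13). Likeness over 2 ratios that share the EGFP-only RNA is a weak description.

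Other enteroendocrine genes were examined in lists by role. Of 15 listed transcription factor genes with a probe, 11 were measured in both channels of the first array. Of these, 1 was 2-fold lower in the double-positive population, against 0.340% of all genes, 1 was 2-fold higher, against 5.10%, and 9 lay below 0, against 51.1% (71.3% with median centring). Among the 9, Isl1 (−0.28), Pax4 (−0.20), Pax6 (−0.17), Rfx6 (−0.12), Rfx3 (−0.03) and Neurod2 (−0.01) were dim. They read 82.8 to 84.8 in the double-positive channel, against a limit of 82.2, and apart from Rfx6 are named beyond the rule for named genes. In the tdTomato-only population 8 factors were measured, of which 1 was 2-fold lower, against 1.19%, and 6 lay below 0, against 51.8% (70.0% with median centring). The list median in the double-positive population was −0.17, between −0.99 and −0.08 over the settings. In the tdTomato-only population it was −0.20, between −0.75 and −0.11. Neurog3, which specifies the enteroendocrine lineage, read 172 in the double-positive and 619 in the EGFP-only channel (−1.55), while it read 256 in the tdTomato-only and 652 in the EGFP-only channel (−1.02). Neurod1, its target in endocrine differentiation, had −0.74 in the double-positive and −0.38 in the tdTomato-only population, and it was past 2-fold lower in the double-positive population in 4 of the 8 settings (−1.26 at its lowest). Mnx1, a homeobox gene, had −0.24 in the double-positive and −0.62 in the tdTomato-only population, and it was past 2-fold lower in the tdTomato-only population in 3 settings (−1.34 at its lowest). The count of factors past 2-fold thus depends on the setting. Both Neurog3 (0.53) and Neurod1 (0.36) were higher in the tdTomato-only than in the double-positive population, as the hormones were, but the list was mixed. Of 8 factors measured in this comparison 5 lay above 0, against 45.7% of all genes, and 3 below, against 54.3%. Mnx1 had −0.38 and Foxa1 −0.53, the lowest. The list median was 0.06, between −0.03 and 0.42 over the settings. Foxa1, a forkhead factor that other secretory cells also express, was higher, at 1.11 in the double-positive and 0.58 in the tdTomato-only population, and the double-positive value was 0.67 in its lowest setting. Rfx6, which acts in endocrine differentiation, was not well above background in the tdTomato-only channel and was at least 1.13-fold lower there.

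Genes of hormone processing and granules had a list median near 0. Of 16 measured genes none was 2-fold lower in either population and 1, Cpd, was 2-fold higher in both, against 5.10% of all genes in the double-positive and 6.15% in the tdTomato-only population. These counts depend on the setting, as the values of Cpe, Scg3 and Cpd show. The list median was 0.08 in the double-positive and 0.03 in the tdTomato-only population, and median centring turned them to −0.03 in the double-positive and −0.02 in the tdTomato-only population. Cpe, the carboxypeptidase that trims prohormones, read 144 in the double-positive and 284 in the EGFP-only channel (−0.78), while it read 187 in the tdTomato-only and 277 in the EGFP-only channel (−0.34). In the double-positive population it was past 2-fold lower in 4 of the 8 settings, down to −1.22. Pcsk1, the prohormone convertase, had 0.50 in the double-positive and 0.63 in the tdTomato-only population. Scg3, a granin-like granule protein gene, had 0.68 in the double-positive population, past 2-fold higher in 3 settings (1.56 at its highest), and −0.01 in the tdTomato-only population. The broadly expressed carboxypeptidase gene Cpd had 1.19 in the double-positive and 1.09 in the tdTomato-only population, with 0.77 in the double-positive and 0.67 in the tdTomato-only population at their lowest.

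Of 12 measured genes for other enteroendocrine peptides and amines, 2 were past 2-fold upward in both populations, against 5.10% of all genes in the double-positive and 6.15% in the tdTomato-only population, and none downward. The list median was 0.02 in the double-positive and 0.01 in the tdTomato-only population, and either sign occurred over the settings. Reg4, a lectin gene of enteroendocrine and other secretory cells, had 4.46 in the double-positive and 4.38 in the tdTomato-only population. Slc18a1, the vesicular monoamine transporter of enterochromaffin cells, had 1.56 in the double-positive and 1.22 in the tdTomato-only population, from spots of 224 in the double-positive and 98.5 in the EGFP-only channel of the same array. Serotonin synthesis genes lay below 0. Ddc, the decarboxylase, had −0.60 in the double-positive and −0.09 in the tdTomato-only population, and Tph1, the hydroxylase, −0.42 in both, a gene chosen after its values were seen. Maoa, which degrades serotonin, had 0.49 in the double-positive population, but −0.18 with median centring, and 0.95 in the tdTomato-only population.

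Among nutrient receptors and channels 8 genes could be measured in the double-positive comparison and 5 in the tdTomato-only one, and 2 were at least 2-fold higher in each. Over all genes that share was 5.10% in the double-positive and 6.15% in the tdTomato-only population. Ffar2, a receptor of short-chain fatty acids, had 1.34 in the double-positive and 1.65 in the tdTomato-only population, and Ffar4, a receptor of long-chain fatty acids, 1.12 in the double-positive (0.79 at its lowest) and 1.91 in the tdTomato-only population. Trpm5, a taste-transduction channel that tuft cells express as well, had −0.47 in the double-positive and −0.25 in the tdTomato-only population. Gpr119, a lipid receptor with 0.25 in the double-positive population, was not well above background in the EGFP-only channel of the second array. Of 19 genes for receptors of these hormones with a probe, 6 could be measured in the double-positive comparison and 5 in the tdTomato-only one. None was past 2-fold. In the double-positive population Gipr had −0.17, Sctr −0.09, Sstr5 −0.15 and Npy2r −0.15, and in the tdTomato-only population Gipr had −0.22, Sctr −0.17 and Sstr5 −0.15. These receptors for GIP, secretin, somatostatin and peptide YY gave dim spots, of which that of Sctr was the brightest at 189 in the EGFP-only channel of the first array.

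**Figure D4:**
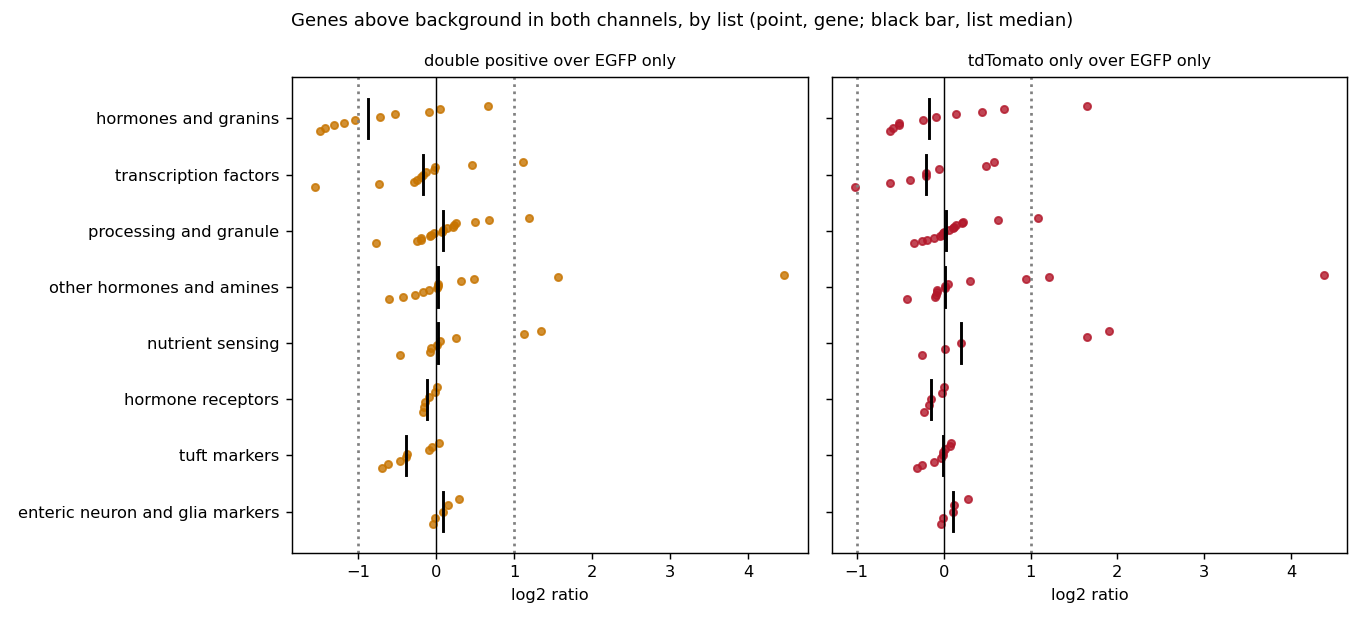
Log2 ratios of genes above background in both channels of an array, by list, for double positive over EGFP only (left) and tdTomato only over EGFP only (right). Each point is a gene, black bars are list medians and dotted lines mark 2-fold. Hormones and granins have a median of −0.88 on the left and −0.16 on the right, and the point at 4.46 and 4.38 is Reg4.

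Marker genes of other cell types differed between the populations, and their part in the hormone values was not tested. Lgr5 read 572 in the double-positive and 699 in the EGFP-only channel (0.26, but −0.26 with median centring), while it read 282 in the tdTomato-only and 666 in the EGFP-only channel (−0.89). The median of the stem cell markers was −0.30 in the double-positive population (12 genes), with −0.97 at its lowest over the settings, and −1.16 in the tdTomato-only population (11 genes), with −1.65 at its lowest. Paneth cell markers had a median of at least 4.19 in the double-positive and at least 4.03 in the tdTomato-only population, over 9 genes. Both are lower bounds, since the middle gene, Ang4, was saturated in both Cy3 channels, as were Pla2g2a and Itln1, while Mmp7 was saturated in the double-positive channel alone. Over the settings these medians lay between 2.87 and 4.38 in the double-positive and between 2.90 and 4.32 in the tdTomato-only population. Goblet cell markers had 2.52 in the double-positive population (13 genes) and at least 3.66 in the tdTomato-only population (12 genes), where Tff3, Zg16 and Spink4 were saturated. Enterocyte markers had 1.92 in the double-positive and 2.32 in the tdTomato-only population, over 12 genes. Of 13 lymphocyte markers listed 9 were measured, and all 9 were past 2-fold upward in double-positive cells, against 5.10% of all genes, where their summed intensity above blanks was 12739, against 1608 in the EGFP-only channel. On the second array 6 of 9 were 2-fold higher, against 6.15%, with sums of 5535 in the tdTomato-only and 1537 in the EGFP-only channel. All sums here are of unnormalized readings. Gzma (3815), Gzmb (3617) and Ccl5 (3524) made up most of the sum in the double-positive channel. Cd3e, named beyond the rule for named genes, was below background in all 4 channels. Enteric neurons also make Sst, Cck and Nts, and of 12 neuron and glia markers with a probe 8 were above background in the double-positive, 5 in the tdTomato-only and 6 in each EGFP-only channel. Over all probes 77.1% were above background in the double-positive, 72.8% in the tdTomato-only, and 68.9% and 67.0% in the EGFP-only channels. Uchl1, Tubb3, Snap25, Sox10 and S100b were above background in all 4 channels, Elavl3, Elavl4 and Gap43 in the double-positive channel alone, and Prph in both EGFP-only channels. The limit was 82.2 in the double-positive and 85.4 in the tdTomato-only channel. Elavl3 read 82.4 in the double-positive and 83.2 in the tdTomato-only channel, and Gap43 82.6 and 84.5, so these calls rest on the unequal limits. Elavl4 read 85.9 and 81.0. Nos1, Ret and Stmn2 were not well above background in any channel. All 12 are named to account for the whole list, beyond the rule for named genes. Sox10 had 0.29 in the double-positive and 0.28 in the tdTomato-only population, and Uchl1 0.14 in the double-positive and 0.11 in the tdTomato-only population. The neuron and glia sum above blanks was 159 in the double-positive and 154 in the EGFP-only channel of that array. On the other array it was 176 in the tdTomato-only and 148 in the EGFP-only channel.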

How the data were processed

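RNA was amplified and coupled to Cy3 or Cy5, per the labels' protocols. The authors deposited spot median intensity values in red and green for each array, per the file headers, which also list lines fitted between scanner gains. The authors also deposited a normalized log2 ratio for each probe, with EGFP only as the denominator, per the labels' descriptions. Subtracting the trimmed mean of blank spots, taking the ratio and centring returned these within 0.02 for 99.99% of probes, and each column had a median of 0.

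Each array had 27456 spots, 2736 of them blank. Background correction was by normexp with an offset of 50, which shrinks ratios of dim probes, followed by loess within each array in limma 3.58.1 (R 4.3.3). Control spots and spots with a quality mark had weight 0 in the loess. Background was the blank mean plus 2 SD. A gene above background in 1 channel alone was given a bound, from levels after loess and Aquantile. The divisor was the dim probe's level or the lowest level above background, whichever was higher, and the bound is open to dye bias. Symbols came from the platform annotation (16631 probes with 1 gene, 0 with several, 6842 without a name here), updated through RefSeq synonyms of GRCm38.p6. No build for the array design was given in the sources used here. Steps were tested on simulated arrays. The members and lists were chosen with earlier results of these data known. Named genes were all members, up to 4 of each list with the largest absolute log2 ratio, up to 2 in 1 population alone, and the 4 nearest to Chga and to Sct. Exceptions are stated where they occur. Alternatives were the deposited ratios, blank subtraction, median centring, quantile normalization, an offset of 10, no dim filter and a limit of 3 SD. The number of arrays limits the precision.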

Additional observations from a re-analysis of the deposited data

Results flagged for a closer look

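For Gcg and Pyy the 2 populations with an Atoh1 history lay on opposite sides of the shared EGFP-only level. Gcg had a log2 ratio of −0.72 in the double-positive and 0.15 in the tdTomato-only population. Pyy had −0.088 in the double-positive and 0.69 in the tdTomato-only population. With 1 array for each population these differences were not tested. The value of 0.15 for Gcg turned negative in the authors' deposited ratios and with median centring, and the −0.088 of Pyy was about the technical SD of the EGFP-only channel.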

How the results depend on the processing

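The number of hormone and granin genes at least 2-fold lower in the double-positive population was 5 in every setting but median centring, where it was 7. Their median log2 ratio there, −0.88, was −1.21 in the authors' deposited ratios, −1.07 with the blank mean subtracted, −1.30 with median centring, −0.99 with quantile normalization and −0.995 with an offset of 10. For the tdTomato-only population against EGFP only, the median of −0.16 became −0.44 in the deposited ratios, −0.68 with median centring and −0.31 with quantile normalization, and 2 genes, not 0, were 2-fold lower with median centring. Median centring put the median of all measured genes at −0.21 on both arrays, so part of each such shift is common to all genes. Between the tdTomato-only and double-positive populations, 1 gene was 2-fold higher, against 2 in the deposited ratios, 4 with the blank mean subtracted and 3 with an offset of 10, and the median of 0.82 was 0.98 with the blank mean subtracted and 0.97 with that offset. Removing the dim filter or raising its limit left the members' values as they were, since all 10 probes passed both limits. Over all genes, 601 were 2-fold higher and 40 lower in the double-positive population, against 1244 and 420 in the deposited ratios and 364 and 740 with median centring. In the tdTomato-only population 700 were higher and 135 lower, against 1209 and 828 from the deposited ratios and 407 and 850 after median centring. Between the tdTomato-only and double-positive populations 92 were higher and 31 lower, against 168 and 140 from the deposited ratios. No paired analysis was possible because each comparison rests on 1 array and no test was made. Dim probes such as Nts, at 130 to 164 units against limits of 74.1 to 85.4, bear the least precise ratios.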

Other observations

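Tuft cell markers, another rare chemosensory lineage, had 7 of 8 measured genes below 0 in the double-positive population, against 51.1% of all genes (71.3% with median centring), with a median log2 ratio of −0.39 and a median between −0.80 and −0.18 over the settings. In the tdTomato-only population the median was −0.01 over 9 genes. Avil, an actin-binding protein gene, had −0.69 in the double-positive and −0.01 in the tdTomato-only population, and Rgs13, a regulator of G-protein signalling, −0.61 in the double-positive and −0.11 in the tdTomato-only population. Avil spots read 120.5 in the double-positive and 211 in the EGFP-only channel, while they read 185 in the tdTomato-only and 217 in the EGFP-only channel. All measured tuft markers were within 2-fold, though Avil reached −1.26 and Rgs13 −1.28 in the double-positive population at their lowest over the settings. The list median in the tdTomato-only population turned to 0.0034 at its highest.

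Among myeloid markers, C1qb had 3.62 in the double-positive and 3.30 in the tdTomato-only population, Fcer1g 1.88 in the double-positive and 0.76 in the tdTomato-only population, and Cd14 −0.60 in the double-positive and −0.88 in the tdTomato-only population. The other C1q genes were dim. In the double-positive population C1qc, named beyond the rule for named genes, had 0.18. C1qa was at least 1.19-fold higher there, with its EGFP-only spot not above background. Of 10 genes measured there 3 were 2-fold higher, against 5.10% of all genes, and 4 lay below 0, against 51.1%. The list median was 0.12 over 10 genes in the double-positive population, with a range of −0.02 to 1.25 over the settings, and 0.24 over 6 genes in the tdTomato-only population.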
